A study of Mus musculus with 6 samples.

Results

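The 7 genes described here carry out glutamate uptake and the glutamine cycle in astrocytes: the transporters Slc1a1, Slc1a2 and Slc1a3, the enzymes Glul and Glud1, the mitochondrial carrier Slc25a18 and the glutamine transporter Slc38a3. They were listed by function, with earlier results of these data known, and all 7 were measured, among 19926 genes with a probe set of their own. Primary astrocytes, grown in culture from C57BL/6J mice, were treated for 24 h with 50 ng/mL of the inflammatory cytokine TNF (tumour necrosis factor), or left as controls collected after 24 h. RNA of each sample was hybridised to 1 Affymetrix Mouse Gene 1.0 ST array, 3 for control and 3 for TNF, and each group has replicates 1, 2 and 3. Values are log2 signals, on which a difference of 1 is a doubling. Array signals compress large changes, so folds tend to be understated. Nothing in the labels says that replicates were separate cultures or animals. The p-values therefore cover the spread among these 6 samples, which may be technical. The small number of arrays limits the precision.

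Glutamate released at synapses is cleared mainly by astrocytes, through the sodium-driven transporters Slc1a3 (GLAST) and Slc1a2 (GLT-1). Inside the cell it is either joined to ammonia by glutamine synthetase, the product of Glul, or carried into mitochondria and oxidised by way of glutamate dehydrogenase, the product of Glud1. The glutamine leaves through the system N transporter Slc38a3 and returns to neurons as the precursor of new transmitter. Slc1a3 is the main glutamate transporter of immature and cultured astrocytes, and Slc1a2 that of the mature forebrain.

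Both genes of the glutamine branch, the synthetase and the transporter, fell with TNF. Slc38a3 was 2.75-fold lower and Glul 1.85-fold lower, and these were the 2 of 7 members past the threshold, a limma p under 0.05 after Benjamini-Hochberg adjustment across the whole array. No member passed as higher in that fit, although 2 were higher at an unadjusted p under 0.05, as were 9.15% of all genes. Among all genes tested 7.20% passed, 3.87% as higher and 3.33% as lower. The samples of the same number deviated together, and with the replicate number as a block 2 more members passed, both higher: the mitochondrial glutamate carrier Slc25a18 (1.89-fold) and the transporter Slc1a2 (1.52-fold). That fit called 21.5% of all genes, 9.73% as higher and 11.8% as lower. Slc1a3, Slc1a1 and Glud1 passed in neither fit.

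**Figure D1:**
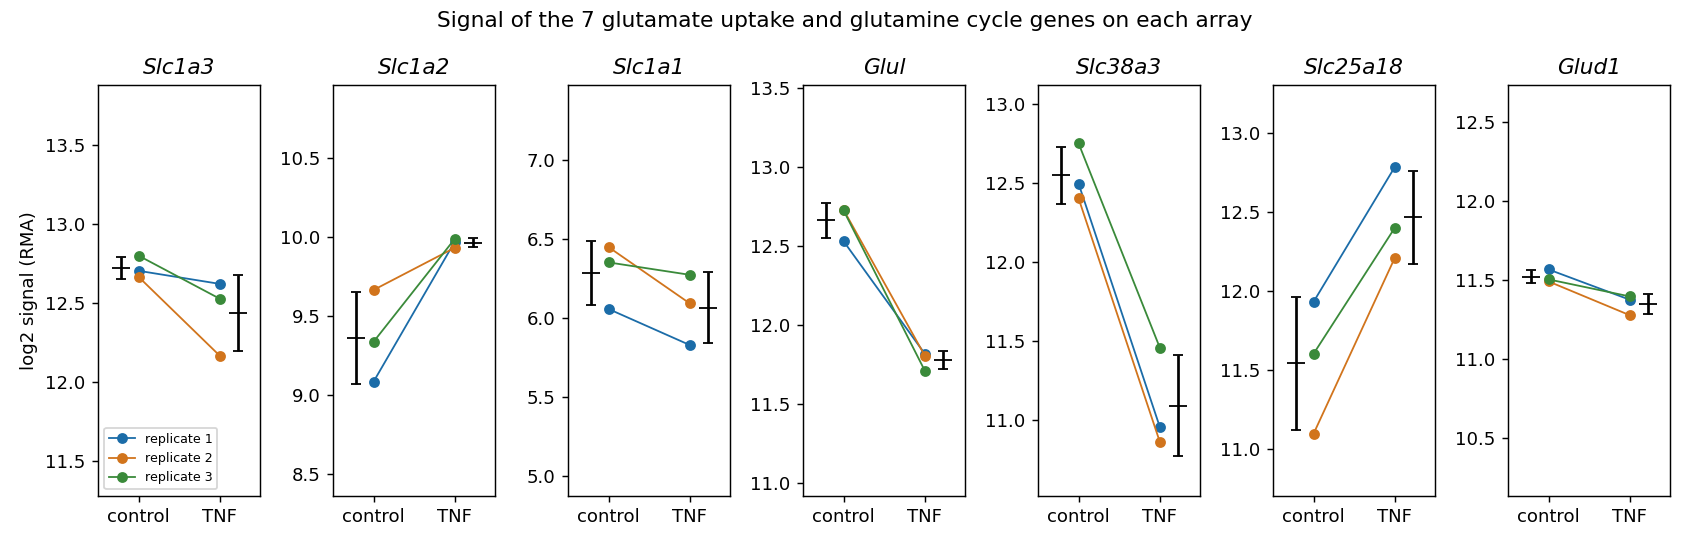
Log2 signal of each of the 7 genes on the 6 arrays, one panel per gene on axes of equal span; points of one replicate number are joined, and black bars give the mean ± SD of 3 arrays per group. Slc38a3 and Glul drop in all 3 pairs, Slc1a2 and Slc25a18 climb in all 3, and Slc1a3, Slc1a1 and Glud1 shift by 0.29 or less on average.

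Slc1a3, the GLAST transporter, read 12.70, 12.67 and 12.80 on control arrays 1, 2 and 3 and 12.62, 12.17 and 12.53 on the TNF arrays of the same numbers. The TNF arrays lay below the controls without overlap, by a gap of only 0.045, and TNF 2 was the lowest. The means were 12.72 ± 0.07 and 12.44 ± 0.24 (SD, n = 3), a log2 difference of -0.29 with a 95% interval from -0.61 to 0.04 (limma adjusted p = 0.351). The blocked fit gave an adjusted p of 0.0863. Without TNF 2 the difference was -0.15. The interval includes 0.

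Slc1a2, the GLT-1 transporter, read 9.08, 9.67 and 9.34 on the controls and 9.97, 9.93 and 9.99 on the TNF arrays. The controls were spread over a wide range, while the 3 TNF arrays spanned 0.057 and lay above every control. The mean went from 9.36 ± 0.29 to 9.96 ± 0.03 (SD, n = 3), a log2 difference of 0.60 (SE 0.15, 95% interval 0.24 to 0.96). This missed the threshold in the unblocked fit (limma adjusted p = 0.0617) but not in the blocked one (adjusted p = 0.0123). The pairs differed by 0.89, 0.27 and 0.65, so that all 3 pointed up, with replicate 2 the smallest. Without control 2 the difference was 0.75 and passed unblocked (adjusted p = 0.0294). Without both arrays of replicate 3 the blocked call was lost (adjusted p = 0.0651).

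The RefSeq window for Slc1a2 is shown because this gene's difference was positive and those of the other 2 transporters, which passed in neither fit, were negative. It covers the 250 bases before an annotated start (GRCm38.p6, chr2:102706188-102706437, plus strand). This start lies 48199 bases inside the gene's outer edge, so the window belongs to an internal start and not to the outermost one. Capitals in this and the following windows mark matches to the motifs named further on, of which this window has none.
Slc1a2: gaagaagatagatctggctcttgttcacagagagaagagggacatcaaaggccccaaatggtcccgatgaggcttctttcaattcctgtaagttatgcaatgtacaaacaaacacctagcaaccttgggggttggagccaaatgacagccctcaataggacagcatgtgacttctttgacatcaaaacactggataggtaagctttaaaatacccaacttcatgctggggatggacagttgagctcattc

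Slc1a1, the EAAC1 transporter, is known mainly from neurons. It read 6.06, 6.45 and 6.35 on the controls and 5.83, 6.09 and 6.27 on the TNF arrays, and the groups overlapped. The log2 difference was -0.22 (95% interval -0.59 to 0.15, limma adjusted p = 0.583), and with the replicate block the adjusted p was 0.123. Its signal was below that of the median gene (7.63), a range in which RMA values may lie near background, and no detection calls were used here. The 13 neuron markers had mean signals per array from 6.86 to 7.10 on the controls and from 6.79 to 7.03 with TNF. Single neuron markers ran from a mean of 5.10 for Nefm to 11.90 for Stmn2.

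Glul, the glutamine synthetase, read 12.53, 12.73 and 12.72 on the controls and 11.82, 11.80 and 11.71 on the TNF arrays. The 2 groups were far apart relative to their spread, with 0.71 between the lowest control and the highest TNF array. The means were 12.66 ± 0.11 and 11.78 ± 0.06 (SD, n = 3), a fall of 0.88 on the log2 scale (SE 0.11, limma adjusted p = 0.00327). The pairs fell by 0.71, 0.92 and 1.01. These values come from the brighter of 2 probe sets annotated to Glul, and it is not stated whether one of them measures another copy of the gene. The other probe set, not used in the fit over genes, read 11.68, 12.08 and 11.63 on the controls and 10.87, 10.89 and 10.69 with TNF. It gave a fall of 0.98 (1.98-fold lower, adjusted p = 0.00776 when it stood for the gene), so both probe sets placed every TNF array below every control. Glul remained past the threshold in all 15 alternative settings, with adjusted p from 3.01e-04 to 0.0357.

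The 250 bases before the start of Glul (GRCm38.p6, chr1:153899679-153899928, plus strand, from RefSeq) are shown because Glul is 1 of the 2 members called lower. They are 64.8% G and C. They hold 2 matches to the CCAAT box, a short element bound by NF-Y, and 1 match to the GC box (GGGCGG), which Sp factors bind.
Glul: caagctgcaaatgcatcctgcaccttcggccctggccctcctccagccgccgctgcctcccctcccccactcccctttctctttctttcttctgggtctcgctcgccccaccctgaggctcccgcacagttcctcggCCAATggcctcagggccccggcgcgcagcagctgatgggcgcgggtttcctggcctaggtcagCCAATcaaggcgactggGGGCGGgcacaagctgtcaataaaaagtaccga

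Slc38a3, which carries glutamine across the astrocyte membrane, showed the widest difference of the 7. It read 12.50, 12.41 and 12.75 on the controls and 10.96, 10.86 and 11.46 on the TNF arrays, with replicate 3 the highest in both groups. The mean went from 12.55 ± 0.18 to 11.09 ± 0.32 (SD, n = 3), a fall of 1.46 on the log2 scale (SE 0.18, 95% interval -1.88 to -1.04, limma adjusted p = 0.00327). The pairs fell by 1.54, 1.54 and 1.29, with replicate 3 the smallest. It passed in all 15 alternative settings, with adjusted p from 5.93e-05 to 0.0182. No RefSeq window was used for Slc38a3.

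Slc25a18, the mitochondrial glutamate carrier GC2, read 11.93, 11.09 and 11.60 on the controls and 12.78, 12.21 and 12.40 on the TNF arrays. Replicate 1 was the highest and replicate 2 the lowest in both groups, and every TNF array was above every control. The means were 11.54 ± 0.42 and 12.46 ± 0.29 (SD, n = 3), a log2 difference of 0.92 (SE 0.23, 95% interval 0.38 to 1.46). In the unblocked fit it did not pass (limma adjusted p = 0.0589), whereas the blocked fit gave an adjusted p of 5.60e-04. The pairs rose by 0.85, 1.11 and 0.80. With the block the call held without replicate 1, 2 or 3, with adjusted p of 2.33e-04, 9.39e-04 and 0.00326. The SD of the 3 pair differences was 0.17 for Slc25a18 and 0.31 for Slc1a2.

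The 250 bases before an annotated start of Slc25a18 (GRCm38.p6, chr6:120773518-120773767, plus strand, from RefSeq), 264 bases inside the gene's outer edge, are shown beside the Glul window because the 2 genes went opposite ways. They are 48.8% G and C and hold 1 match to the TATA box (TATAAA), on the strand opposite to the one printed.
Slc25a18: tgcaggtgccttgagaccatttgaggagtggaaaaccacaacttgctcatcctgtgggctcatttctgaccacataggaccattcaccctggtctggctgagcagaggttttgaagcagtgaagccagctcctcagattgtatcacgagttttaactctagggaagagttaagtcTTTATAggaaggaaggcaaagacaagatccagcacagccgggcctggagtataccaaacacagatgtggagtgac

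Both strands of the 6 member windows were searched for the kB consensus, the binding pattern of NF-kB, which TNF activates, and for the CCAAT box, the TATA box and the GC box in the letters given above. No matches of different motifs overlapped. The kB consensus matched in 0 of 6 member windows, against 3.90% of 32851 windows of the same length in the RefSeq table. The CCAAT box matched in 2 of 6 (33.8% of all windows), the TATA box in 2 of 6 (12.4%) and the GC box in 4 of 6 (32.7%). Besides the windows shown, Slc1a3 held all 3 of these boxes, and Slc1a1 and Glud1 held the GC box. A match is only a description of the letters, and a missing match covers only these 250 bases.

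Glud1, the mitochondrial glutamate dehydrogenase, was the steadiest member. It read 11.57, 11.49 and 11.51 on the controls and 11.38, 11.28 and 11.40 on the TNF arrays, so that all 3 TNF arrays were lower by a small step. The log2 difference was -0.17, with a 95% interval from -0.40 to 0.06 (limma adjusted p = 0.458, and 0.177 with the replicate block). A halving of the signal lies outside that interval.

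**Figure D2:**
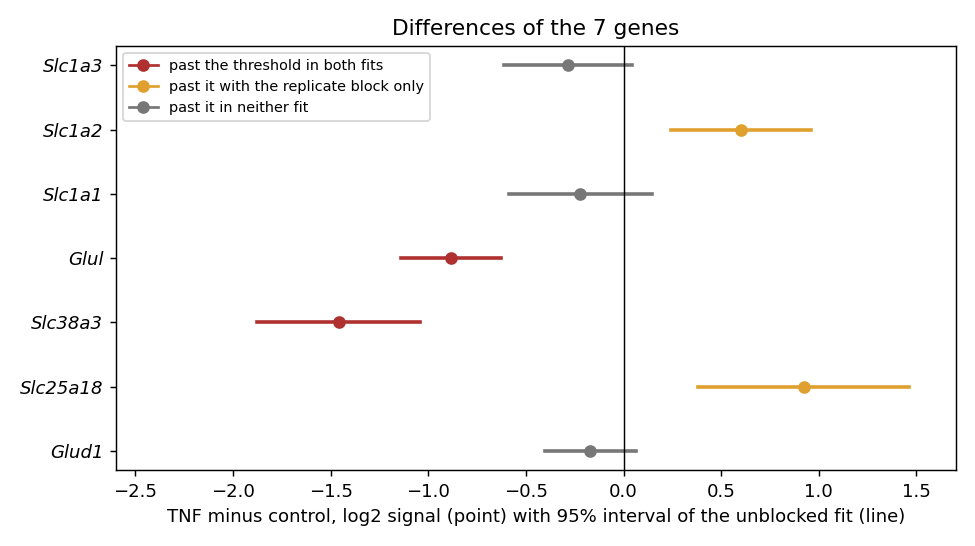
TNF minus control on the log2 scale for the 7 genes, as points with the 95% interval of the unblocked limma fit (3 arrays per group), coloured by the fit in which the gene passed. Slc38a3 at -1.46 and Glul at -0.88 lie far below 0, Slc1a2 at 0.60 and Slc25a18 at 0.92 lie above it, and the intervals of Slc1a3, Slc1a1 and Glud1 include 0.

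Over the list, 5 members were lower and 2 higher in all 3 pairs, which was true of 26.9% and 25.7% of all genes tested. The groups did not overlap in 6 of the 7, against 24.0% of all genes. They were 4 with TNF below (11.7% of all genes) and 2 with TNF above (12.3%). The median log2 difference was -0.22 over the 7 members and -0.003 over all genes. Fewer cells of a type and less RNA per cell cannot be told apart in these bulk samples.

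Unequal movement of the genes was read within arrays, where the difference between a pair of genes does not depend on the scaling of the array. Slc1a2 minus Slc1a3 was -3.62, -3.00 and -3.46 on the controls and -2.65, -2.23 and -2.54 with TNF. The shift was 0.89, or 1.85-fold in favour of Slc1a2, and the groups did not overlap. Slc1a2 minus Glul was -3.44, -3.06 and -3.39 on the controls and -1.84, -1.87 and -1.72 with TNF, a shift of 1.49, or 2.80-fold. Here the gap between the groups was wider than the range within either. Slc1a3 minus Glul moved least, from 0.06 ± 0.12 to 0.66 ± 0.26 (SD, n = 3), a shift of 0.60 that was 1.51-fold. Each of these 3 shifts had a two-sided exact permutation p of 0.1, the smallest that 3 against 3 arrays can give, so none could pass 0.05, also after adjustment over the 3.

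**Figure D3:**
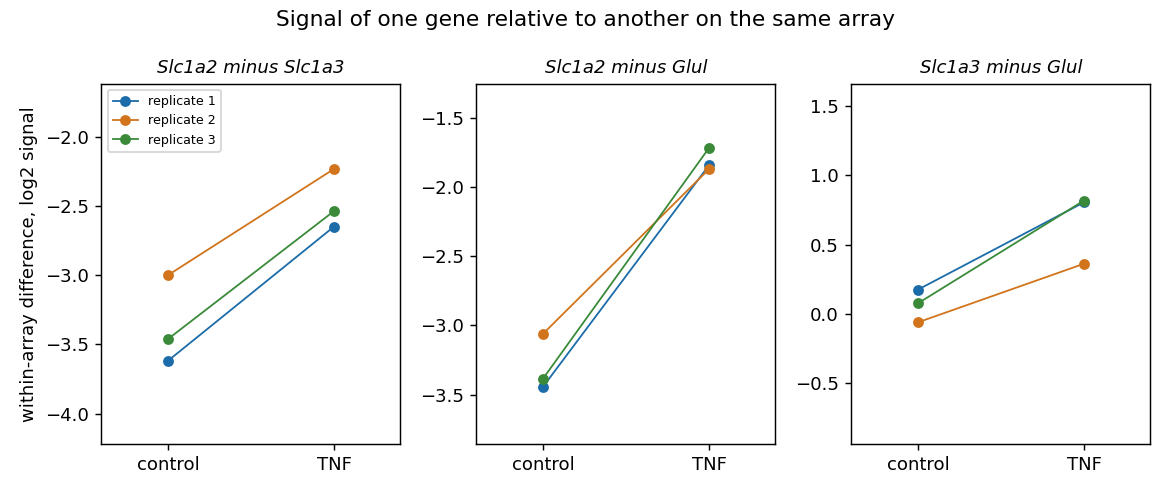
Log2 signal of one gene minus that of another on the same array, for 3 pairs of genes on axes of equal span, with points of one replicate number joined. All 9 lines climb from control to TNF, by 1.49 on average for Slc1a2 minus Glul and by 0.60 for Slc1a3 minus Glul; only changes within a panel have a meaning, since probe sets differ in brightness.

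Beyond the 7 members, 73 of 84 listed genes of glutamate and glutamine handling were measured, in 8 groups by role. Of these, 6 were higher and 9 lower in the unblocked fit, 20.5% in all, against 7.20% of all genes tested. With the replicate block 13 were higher and 16 lower, or 39.7% against 21.5%. Without replicate 3 there were 2 higher and 3 lower, against 3.17% of all genes. Several of these genes are known astrocyte or stress-response genes, and the lists were written with earlier results of these data known, so the shares are a description.

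Among the transporters that carry glutamate, glutamine or cystine, changes went both ways. Slc1a5 (ASCT2), an exchanger of neutral amino acids that accepts glutamine, read 6.88, 6.86 and 6.89 on the controls and 8.14, 7.91 and 8.21 with TNF. It was 2.31-fold higher (SE 0.12 on the log2 scale, limma adjusted p = 8.74e-04), while its relative Slc1a4 differed by 0.22 and did not pass. Slc7a11 (xCT), which exports glutamate in exchange for cystine, was 5.81, 6.77 and 6.13 on the controls and 7.61, 7.84 and 7.01 with TNF. This was a 2.38-fold rise (adjusted p = 0.0403), and its heavy chain Slc3a2 differed by -0.11. Slc38a1, a sodium-driven glutamine transporter, fell by 0.70 on the log2 scale to 10.90 ± 0.15 (adjusted p = 0.0125). Of the 14 other glutamine transporters this was the only call in the unblocked fit, which called 7.20% of all genes. Slc38a2, also sodium-driven, differed by 0.20 without passing. Slc7a6 at 0.44 passed only with the replicate block (adjusted p = 0.0122).

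Mitochondrial carriers included the close relative of Slc25a18. Slc25a22, the glutamate carrier GC1, read 8.19, 7.92 and 8.27 on the controls and 8.88, 9.07 and 9.01 with TNF, a 1.81-fold rise (SE 0.13 on the log2 scale, limma adjusted p = 0.00761). Both mitochondrial glutamate carriers were thus above the controls on every TNF array, Slc25a22 past the threshold in both fits and Slc25a18 with the block. The aspartate/glutamate carrier Slc25a12 went the other way at -0.50, and passed as lower only with the block (adjusted p = 0.0224). The dicarboxylate carrier Slc25a10 at 0.37 and the citrate carrier Slc25a1 at 0.36 also passed only with the block, as higher.

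Of the 15 enzymes measured, 1 was higher and 3 were lower in the unblocked fit, against 3.87% and 3.33% of all genes. Folh1, glutamate carboxypeptidase II, which releases glutamate from the neuropeptide N-acetylaspartylglutamate, read 8.17, 8.45 and 8.02 on the controls and 6.31, 6.76 and 6.35 with TNF. It was 3.34-fold lower (SE 0.17 on the log2 scale, limma adjusted p = 8.57e-04), a wider difference than that of any member. Gpt2, the mitochondrial alanine aminotransferase, fell by 0.83 (adjusted p = 0.018). Gclm, the regulatory subunit of glutamate-cysteine ligase in glutathione synthesis, fell by 0.74 (adjusted p = 0.0114). Aldh18a1, which turns glutamate towards proline, rose 1.56-fold (adjusted p = 0.0115). The aspartate aminotransferases Got1 and Got2 differed by 0.20 and 0.21 and did not pass. With the block alone, asparagine synthetase Asns at 0.62 and proline dehydrogenase Prodh at 0.36 passed as higher, and Gclc, the catalytic partner of Gclm, at -0.41 as lower.

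In the vesicular and GABA group, Abat, the GABA transaminase, fell by 0.59 on the log2 scale (limma adjusted p = 0.0194). Aldh5a1, the next enzyme in GABA breakdown, was 8.24 ± 0.28 on the controls and 7.21 ± 0.51 with TNF (SD, n = 3, adjusted p = 0.0559), and was called lower in the blocked fit (adjusted p = 6.70e-04). Gad1, which makes GABA, differed by 0.55 and passed as higher with the block only (adjusted p = 0.00792). The vesicular transporters Slc17a6, Slc17a7 and Slc17a8, which load glutamate into neuronal vesicles, differed by -0.04 to 0.17 and did not pass. Their mean signals were at percentiles 11.9, 25.9 and 29.6 of all genes, a range that may lie near background.

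Glutamate uptake draws on the sodium and potassium gradients of the astrocyte, and 3 of 9 genes for these and other partners fell. Among all genes 3.33% were called lower in the same unblocked fit. Atp1b2, a sodium pump subunit, was 2.39-fold lower (limma adjusted p = 6.56e-04). Kcnj10, the potassium channel Kir4.1, was 2.12-fold lower (adjusted p = 0.0157), and Ezr, the ezrin of fine astrocyte processes, was 1.51-fold lower (adjusted p = 0.012). With the block Atp1b1 at -0.32 and the pump regulator Fxyd1 at -0.38 also passed as lower, and the water channel Aqp4 at 0.60 as higher. Among 13 genes tied in the literature to control of Slc1a2 and Slc1a3, Rela, an NF-kB subunit, rose 1.59-fold (adjusted p = 0.0171) and Stat3 rose 1.5-fold (adjusted p = 0.0133). Adcyap1r1, the receptor of the peptide PACAP, was 1.69-fold lower (adjusted p = 0.0275). With the block Grm3, a metabotropic glutamate receptor, at -0.36 and Kcnip3 at -0.46 passed as lower.

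**Figure D4:**
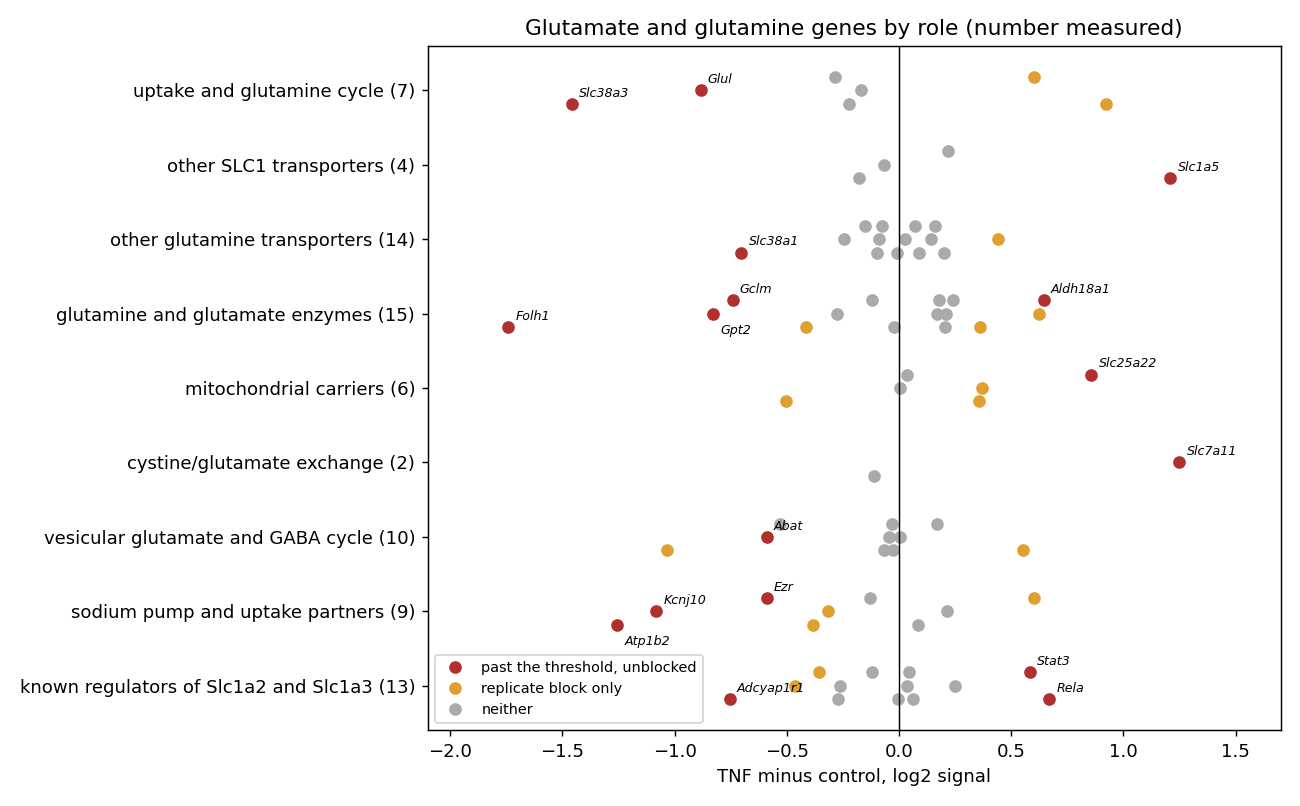
TNF minus control on the log2 scale for the 7 members and the 73 other glutamate and glutamine genes, one point per gene in rows by role, with calls of the limma fits in colour and genes past the unblocked threshold named. The lowest points are Folh1 at -1.74, Slc38a3 at -1.46 and Atp1b2 at -1.25, and the highest are Slc7a11 at 1.25 and Slc1a5 at 1.21.

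Many calls in these groups were lost when 1 array was left out, and the number called over all genes fell too. Of the 15 unblocked calls, 5 held in all 6 fits with 1 array left out, namely Slc1a5, Folh1, Slc25a22, Atp1b2 and Gclm, and the first 4 of these also held without replicate 3, as did Gpt2. Without control 1 there were 3 higher and 3 lower, without TNF 2 there were 2 and 5, and without TNF 1 there were 3 higher. The lost calls were those of Abat, Adcyap1r1, Stat3 and Slc7a11 in 4 of the 6 fits (without control 1, control 3, TNF 1 or TNF 2), with adjusted p up to 0.134. Gpt2 was lost in 3 (control 1, control 2, TNF 2), Rela in 3 (control 2, TNF 1, TNF 2), Slc38a1 and Aldh18a1 in 2 (control 1, TNF 2), Kcnj10 in 2 (control 1, control 3) and Ezr in 1 (control 1).

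The genes whose signal followed each member most closely over the 6 arrays were taken by Pearson's r among the 9963 genes at or above the median signal. The arrays share the 2 groups and the replicate numbers, so high values are common and are given as a description. Glul was closest to Slc4a4, a bicarbonate cotransporter (r = 0.998), Ctnnd2 and Pde8b (both 0.997). Slc38a3 was closest to Fam184a (0.998), Lims2 and Elfn1 (both 0.997), and Slc25a18 to 2210016L21Rik (0.999), Nelfa and Pigo (0.996 and 0.995). Slc1a2 was followed by Limk1 (0.999), Fbxo22 (0.992) and Mpv17l2 (0.983), and Slc1a3 by Pomt1 (0.985), Pcnx (0.977) and Dbn1 (0.976). Glud1 was closest to B3gat2 (0.998), Plod1 and Lpcat2, and Slc1a1 to Fasn (0.983), Sgsh and H2ac1. Between members, Glul and Slc38a3 had r = 0.934, and Slc1a2 had -0.803 with Glul and -0.849 with Slc38a3.

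The astrocyte label was checked against 10 markers, whose mean signals ran from 5.20 for Gjb6 to 12.07 for Aqp4, with Gfap at 11.91 ± 0.44 on the controls (SD, n = 3). Their mean per array was 10.25 to 10.62 on the controls and 9.75 to 10.03 with TNF, and 4 of the 10 fell beside Glul and Slc38a3: Slc4a4, Aldoc, Gja1 and Fgfr3. With the block 7 were lower, Gfap at -0.51, Sox9 at -0.76 and S100b at -0.40 being added, and Aqp4 was higher at 0.60 (limma adjusted p = 0.0069). Markers of other cells differed less in their list means. These means include dim markers, and some single markers named below fell about as far as the astrocyte markers called lower. The 14 microglia markers had means of 7.02, 6.45 and 7.67 on the controls and 7.37, 6.59 and 7.74 with TNF. The unblocked limma fit called 0 of them, against 7.20% of all genes, and 1 was higher at an unadjusted p under 0.05 (9.15% of all genes). With the block 3 were called higher (9.73% of all genes), Cd68, Itgam and C1qb. Cd68 had the brightest mean of the list (8.59). The 11 oligodendrocyte lineage markers differed by -0.19 on average, with Olig1 (-1.21) and Olig2 (-0.60) called lower in both fits, and Cnp was the brightest of them (10.78). The 10 fibroblast and mural markers differed by -0.23 on average. The brightest of them, Acta2 (mean 12.89, difference -0.96), was called lower, and Tagln (-1.10) and Pdgfrb (-0.38) were also lower with the block. The neuron list differed by -0.06 on average, with Map2 (-1.22) called lower. With the block Stmn2, the brightest neuron marker (mean 11.90), was also called lower (-0.39) and Gad1 higher (0.55). The endothelial list differed by -0.10, with its brightest member Kdr (mean 6.86, difference -0.91) called lower in both fits. For each list, the astrocyte markers included, the shares over all genes were 3.87% called higher and 3.33% called lower in the unblocked fit. With the block they were 9.73% and 11.8%. RMA leaves no value at 0, and the part of other cells in the members' differences was not tested. Replicate 3 stood apart in its signals, with lower quartiles of 6.27 and 6.33 against 6.01 to 6.09 on the other arrays. Without it Slc38a3 (-1.54, adjusted p = 0.00591) and Glul (-0.82, adjusted p = 0.0357) were still called.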

How the data were processed

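The deposited table holds log2 signals of 35544 probe sets on 6 Affymetrix arrays. Per the submitters' processing notes the authors used RMA (background correction, quantile normalization, probe summary) and limma, with no version stated. That the scale is log2 was inferred from its range (2.04 to 14.37). RMA understates large folds, and dim genes stay at a floor.

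Probe sets with 1 gene symbol in the platform annotation (21777) were kept, 1621 with several and 12146 with none were not, and the probe set of highest mean stood for each gene, which gave 19926 genes. Sample titles gave the group and the replicate number. TNF minus control was fitted with limma 3.58.1 in R 4.3.3 (lmFit, eBayes, two-sided, no block; 4 residual degrees of freedom) and called at p under 0.05 after Benjamini-Hochberg adjustment across the 19926 genes. Ratios within arrays were tested by exact permutation (scipy 1.17.1, Python 3.11.15). The script was tested on simulated data.

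Replicate numbers pair the samples by the values: deviations from group means correlated at 0.55, 0.649 and 0.749 for equal numbers. The block is therefore given where it changes a call. The members and lists were chosen with earlier results of these data known. Named genes were all members, every gene of the 8 other glutamate lists past the threshold in either fit, the 2 with the smallest p in each of these lists, the 3 most alike per member and the brightest marker of each cell type list, with genes named as not passing, and markers called in either fit, added after their values were seen. Alternatives were the block, arrays left out, scaling, a filter on dim genes, variance models, array weights, probe set choice, all probe sets and a stricter threshold. Promoter windows came from RefSeq (GRCm38.p6), matched by symbol for 6 of 7 members.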

Additional observations from a re-analysis of the deposited data

How the results depend on the processing

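No member's log2 difference changed sign in the alternatives run. Slc38a3 and Glul were called in all 15 planned settings; 2 members were called lower throughout, and 2 to 3 with the block and a replicate number left out (Slc1a3 without replicate 1, adjusted p = 0.0343). Members called higher, 0 unblocked, were 2 with the replicate block (9.73% of all genes), 2 among genes at or above the median signal (8.93%), 2 with trend and robust variance (4.42%) and 1 with array weights (Slc1a2; 5.79%). They ranged from 0 to 1 with an array or replicate 3 left out and from 1 to 2 with the block and a number left out, an alternative chosen after seeing the data. Over all genes 771 were higher and 663 lower. With the block there were 1938 and 2351, with adjusted p under 0.01 386 and 195, and with all probe sets 436 lower. Arrays or replicate 3 left out gave 401 to 669 higher and 231 to 455 lower, and the block with a number left out 1250, 1275 and 1801 higher and 1451, 1660 and 2258 lower. The other glutamate genes, 6 higher and 9 lower, were 13 and 16 with the block, 2 and 2 at 0.01, 2 to 6 and 3 to 9 with arrays left out, and 9, 11 and 12 higher and 12 to 16 lower with the block and a number left out. The within-array shifts kept their sign: 0.76 to 1.07, 1.4 to 1.6 and 0.52 to 0.75 with arrays left out, and a paired exact p of 0.25 with the replicate block, the smallest that 3 pairs can give. The cause of these changes was not tested; fewer arrays leave fewer degrees of freedom. The signal of Slc1a1 may lie near background.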
